A study of Danio rerio with 10 samples.

Results

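Among the zebrafish larvae exposed to a mixture of persistent organic pollutants (POPs), 3 pools differed strongly from 3 other exposed pools in the expression of circadian clock genes. The clock-shifted pools are POP75× replicate 2 and POP125× replicates 1 and 2, and they were set against POP75× replicate 4 and POP125× replicates 3 and 4. These are 6 of the 10 pools measured. Each side holds 1 POP75× pool and 2 POP125× pools, so that dose is the same on both sides. The pools were put together because they cluster together and because of their clock genes, with *nr1d1*, *nfil3-5*, *rorcb*, *cry5* and *serpinh1b* as markers. The pools were therefore selected on the same measured values, the normalized counts of clock genes and of all genes in the clustering, that are described here, every difference between them is given as a description, and no test of gene values was made of one side against the other.

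The study exposed AB strain embryos to a mixture of perfluorinated, chlorinated and brominated compounds, at 75 times (POP75×) or 125 times (POP125×) the mean human blood concentration. Exposure began within hours of fertilization and lasted until RNA was taken from whole larvae at 5 days post fertilization (dpf), with all groups, control included, in 0.1% DMSO. RNA-seq was made from 3 control, 3 POP75× and 4 POP125× pools, each of 75 larvae by the labels. Adult fish were kept on 14 h of light and 10 h of dark, and the hour at which larvae were collected is not given in the sources used here. The replicate number is the only label that separates the sides, with numbers 1 and 2 on the clock-shifted side and 3 and 4 on the other, so that pool set and replicate number cannot be told apart in these 6 pools. Control replicates 1, 2 and 4 and POP75× replicate 3 are in neither side.

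In the circadian clock, Clock and Bmal proteins (the latter encoded in zebrafish by the *arntl* genes) switch on the period and cryptochrome genes, whose products in turn repress Clock and Bmal. A further loop runs through nuclear receptors, of which the Rev-erb proteins (*nr1d* genes) repress and the Ror proteins activate the Bmal genes. PAR-bZIP factors (Dbp, Tef and Hlf) and the repressor Nfil3 act on common DNA elements, the D-boxes. Most zebrafish tissues hold clocks that respond directly to light, and light induces genes such as *per2*, *cry1a* and photolyases, the latter being enzymes that repair DNA with the energy of light.

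Values are normalized counts, and each difference is that of the mean log2(value + 1) of the clock-shifted pools minus that of the other exposed pools. Values in 3 pools are given in the order POP75×, POP125×, POP125×, which is POP75× replicate 2 and POP125× replicates 1 and 2 for the clock-shifted pools, and POP75× replicate 4 and POP125× replicates 3 and 4 for the other exposed pools. Of 32520 genes listed, 21161 reached 10 normalized counts in at least 3 of the 6 pools. With 3 pools a side, a gene can reach this minimum through 1 side alone. A gene is called higher or lower here when its difference is at least 2-fold (1 on the log2 scale) and none of its 3 values on one side overlaps those on the other. Among those 21161 genes, 468 were called higher (2.21%) and 414 lower (1.96%) in the clock-shifted pools. Without the minimum fold, 4261 lay higher without overlap (20.1%) and 3859 lower (18.2%), and the median difference of all genes was 0.01. Just inside the threshold stood *BX890576.1* at 1.0004 and *zgc:65997* at −1.0013, and just outside it *BX088712.5* at 0.9991 and *aspdh* at −0.999998. In pools of whole larvae, fewer cells of a type and less RNA per cell cannot be told apart.

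Reads on genes numbered 13659239 to 20267255 over the 10 pools. The clock-shifted pools held 15301743 ± 1715058 reads (SD, n = 3) and the other exposed pools 17188208 ± 1639441 (SD, n = 3), and this difference did not pass a two-sided exact permutation test (p = 0.2, where 3 against 3 pools cannot go below 0.1). Markers of muscle, liver, intestine, skin, red cells and brain were present on both sides, as befits whole larvae, and their lists are described further on.

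The markers of the rule differed many-fold. *nr1d1*, which encodes the repressor Rev-erb alpha, had 288, 247 and 358 normalized counts in the clock-shifted pools and 2679, 3267 and 2736 in the other exposed pools. It was 9.73-fold lower, with a difference of −3.29 against SDs of 0.27 and 0.16 within the sides, and the difference was −3.21 between the POP75× pools and −3.33 between the POP125× pools. The 4 remaining pools, control replicates 1, 2 and 4 and POP75× replicate 3, had 1710.1, 2488, 3037 and 2215 and thus lay on the side of the other exposed pools. *rorcb*, one of the Ror activators, had 3378, 3596 and 3216 against 324, 232 and 245, which is 12.7-fold higher. *nfil3-5*, one of the zebrafish copies of the D-box repressor Nfil3, had 6758, 5565 and 6555 against 531, 509.6 and 509, which is 12.2-fold higher. *cry5*, the 6-4 photolyase gene, had 154, 165 and 120.4 against 1021, 777 and 668, which is 5.61-fold lower. For all 4 genes the nearest pools of the 2 sides were several-fold apart, a separation that follows from their use in choosing the pools.

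**Figure D1:**
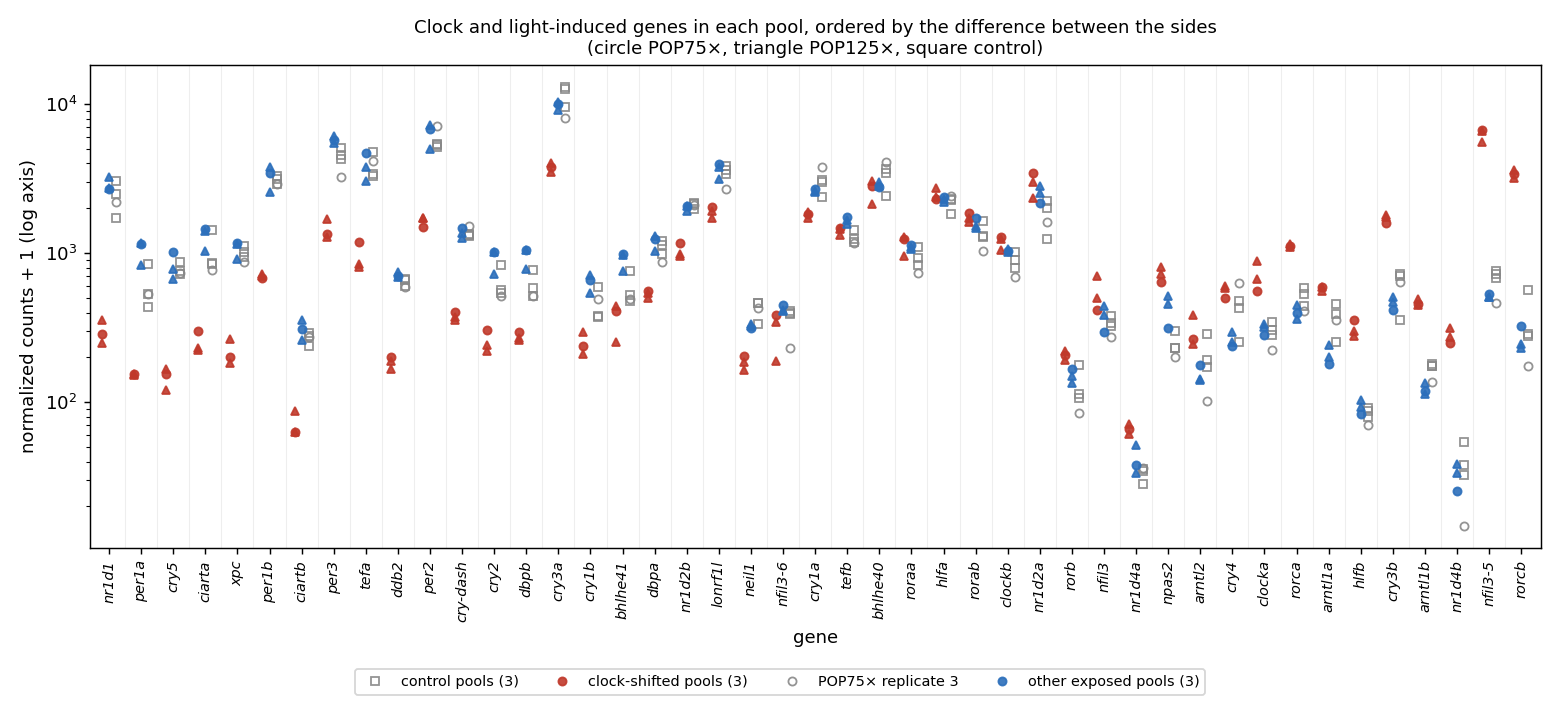
Normalized counts (plus 1, log axis) of the clock and light-induced genes, 1 column per gene, with 1 symbol per pool (circle POP75×, triangle POP125×, square control). Red symbols are the 3 clock-shifted pools, blue symbols the 3 other exposed pools and open symbols the 4 pools in neither side. Of the 45 genes, 28 were called, and *rorcb* (red at 3216 and above, blue at 324 and below) shows one of the widest gaps.

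Over the 5 lists of clock activators, period and cryptochrome repressors, Rev-erb and Ror receptors, PAR-bZIP and Nfil3 factors, and light-induced genes, 45 of 47 identifiers were expressed above the minimum. Of these 45, 10 were called higher and 18 lower, beside 2.21% and 1.96% of all genes. Without the minimum fold, 38 did not overlap and 7 overlapped. Of the 38, 14 lay higher (20.1% of all genes did) and 24 lower (18.2% of all genes). Their differences ran from −3.29 to 3.68, with a median of −0.54.

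All 6 activator genes had a positive difference (median 1.04). Of the 6, 5 lay higher without overlap (20.1% of all genes did) and 3 were called higher (2.21% of all genes). *arntl1b*, which encodes a Bmal1, had 456, 489 and 446 normalized counts in the clock-shifted pools against 117, 112 and 134 in the other exposed pools (3.83-fold higher). Its duplicate *arntl1a* had 590.4, 558 and 596 against 179, 201 and 243 (2.8-fold). *clocka* had 558, 884 and 671 against 280.3, 319.8 and 334 (2.26-fold). The activators thus stood higher at both doses, while *clockb*, with 1292, 1246 and 1053 against 1039, 1016 and 1074, was the one that overlapped. *arntl2*, a Bmal2 gene, and *npas2*, a paralog of Clock, lay between, with differences of 0.94 and 0.77 and no overlap.

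The 14 repressors had a median of −1.61. Of these, 11 lay lower without overlap (18.2% of all genes did) and 10 were called lower (1.96% of all genes). The 4 period genes were all among them. *per1a* had 155, 151 and 154 normalized counts in the clock-shifted pools against 1146, 1165 and 835 in the other exposed pools (6.83-fold lower). *per1b* had 684, 698 and 721 against 3425, 3762 and 2579.8 (4.65-fold lower). *per3* had 1344, 1684 and 1279 against 5753, 6139 and 5485 (4.03-fold lower). The 3 clock-shifted pools stood close together in *per1a*, with an SD of 0.02 on the log2 scale. Also lower were *ciarta* and *ciartb*, which encode the repressor Chrono (−2.37 and −2.13), the cryptochromes *cry2* (−1.84), *cry3a* (−1.38) and *cry1b* (−1.37), and *bhlhe41*, a Dec gene (−1.33). The cryptochromes did not all go one way. *cry3b* had 1583, 1797 and 1736 in the clock-shifted pools against 414, 469 and 509 (3.67-fold higher), the opposite of its duplicate *cry3a* with 3813, 4032 and 3504 against 10036, 9167 and 10314. *cry4* was also higher, with 496, 584 and 601 against 236, 254 and 296. *bhlhe40* overlapped, with a difference of −0.12.

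The receptors of the further loop were split. Of 10 Rev-erb and Ror genes, 3 were called higher (2.21% of all genes) and 1 lower (1.96% of all genes). Besides *rorcb*, these were its paralog *rorca*, with 1109, 1107 and 1151 in the clock-shifted pools against 395, 363 and 449 (2.79-fold higher), and *nr1d4b*, with 249.96, 314 and 274 against 24.4, 37.4 and 32.3 (8.9-fold higher). Members of the Rev-erb family thus stood in opposite directions, *nr1d1* lower and *nr1d4b* higher. *nr1d2b* lay lower without overlap (−0.96), just short of 2-fold, whereas *nr1d2a*, *roraa* and *rorab* overlapped. *nr1d4a* and *rorb* lay higher by 0.71 and 0.46.

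Among the 9 measured PAR-bZIP and Nfil3 genes, 3 were called lower (1.96% of all genes) and 2 higher (2.21% of all genes). *tefa*, whose product activates D-box genes, had 1197, 846 and 809 in the clock-shifted pools against 4692, 3772 and 3054 (4.04-fold lower). *dbpb* had 294, 267 and 259 against 1055, 1045 and 786 (3.52-fold lower) and *dbpa* differed by −1.16. In contrast, *hlfb*, another PAR-bZIP factor, had 354, 277 and 302 against 82.0, 103 and 92.5 (3.36-fold higher). The Nfil3 genes also differed from one another. *nfil3-5* was 12.2-fold higher, *nfil3* overlapped (0.51) and *nfil3-6* lay lower (−0.54). Of the other members, *hlfa* overlapped and *tefb* lay lower by 0.24, while *nfil3-3* and *nfil3-4* did not reach the minimum.

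All 8 light-induced and photolyase genes lay lower in the clock-shifted pools without overlap (18.2% of all genes did), with a median of −1.90. Of the 8, 5 were called lower (1.96% of all genes). *per2* and *cry1a* are in this list and were already counted among the 14 repressors. *per2*, a period gene that zebrafish cells induce with light, had 1503, 1720.02 and 1717 normalized counts in the clock-shifted pools against 6830.3, 7190.4 and 5012 (3.85-fold lower). *cry-dash*, a member of the photolyase and cryptochrome family, had 400.1, 374 and 355 against 1477, 1371 and 1265 (3.64-fold lower). The genes of this list that serve DNA repair without light stood in the same direction. *xpc*, which recognizes DNA lesions in nucleotide excision repair, had 201, 264 and 181 against 1168, 1157 and 915 (5.02-fold lower). *ddb2*, which acts in the same pathway, had 201, 188 and 167 against 703, 742 and 695 (3.85-fold lower). Smaller differences were found for *lonrf1l* (−0.94), *neil1*, a DNA glycosylase (−0.82), and *cry1a* (−0.54).

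The kinases and ubiquitin ligases that set the stability of clock proteins differed less. Of 9, 3 lay higher (20.1% of all genes did) and 3 lower (18.2% of all genes) without overlap. The 1 called, higher as 2.21% of all genes were, was *fbxl3a*, which encodes a ubiquitin ligase subunit for cryptochromes. It had 478, 462 and 507 in the clock-shifted pools against 253, 222 and 223. The casein kinase genes *csnk1da* and *csnk1db* differed by −0.46 and −0.59. Of 13 pineal and melatonin genes, 1 was called higher (2.21% of all genes) and none lower. This was *aanat2*, which encodes the pineal enzyme of melatonin synthesis that is most active at night, with 135, 103 and 136 in the clock-shifted pools against 7.81, 12.2 and 11.3 (12-fold higher). Control replicates 1, 2 and 4 and POP75× replicate 3 had 8.59, 8.80, 18.7 and 9.59, in the range of the other exposed pools or slightly above. With so few counts outside the clock-shifted pools, the fold of *aanat2* is uncertain. Other pineal genes did not follow *aanat2* to this extent, since *otx5*, a photoreceptor transcription factor of the pineal, was higher by 0.57, *aanat1* and *tph2* lay lower by 0.57 and 0.59, and 7 genes overlapped.

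The 4 pools in neither side give a further view of the same genes, as a description, since they too were in the clustering. Over the 28 clock and light genes called, control replicate 1 was nearer to the mean of the other exposed pools for 28, control replicate 2 for 24, control replicate 4 for 24 and POP75× replicate 3 for 25. Over all 882 called genes these numbers were 753, 680, 673 and 676. Control replicates 1 and 2 carry the same replicate numbers as the clock-shifted pools but lay mostly with the other side in these genes. For example, *arntl1b* had 178, 173, 174 and 136 in control replicates 1, 2 and 4 and POP75× replicate 3, and *per1b* had 3153, 2892, 3315 and 2931. By contrast, only 1 of these 4 pools was nearer to the other exposed pools for *arntl1a*, *cry4* and *bhlhe41*, and 2 were for *cry1b*. Of the 468 genes called higher, 289 (61.8%) had all 4 of these pools nearer to the other exposed pools, and so had 229 of the 414 called lower (55.3%). Among all 21161 genes, called or not, 6831 had all 4 nearer to that side.

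Dose, which cuts across the sides, and replicate number, in the 4 pools in neither side, were tested with limma, with adjustment over all genes. Those 4 pools were in the clustering and were not placed with the clock-shifted pools. The test of replicate number is therefore not independent of the choice of pools. POP125× against POP75×, 4 against 2 pools within the 6, gave 0 genes of 21161 at an adjusted p under 0.05 (0%), with 769 at an unadjusted p under 0.05, while edgeR on the recovered reads gave 0 and 789. The 45 clock and light genes differed between doses by −0.50 to 0.49 on the log2 scale, with a lowest adjusted p of 0.999 (limma). *nr1d1* differed by 0.10 with a standard error of 1.25, and *rorcb* by −0.22 with a standard error of 1.39. In this fit the spread within a dose includes the difference between the pool sets, and a dose difference of several-fold in such genes could not have been seen. With DESeq2 9 genes were called.

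Replicate numbers 1 and 2 against 3 and 4 were then compared in the 4 pools outside the rule, as control replicates 1 and 2 against control replicate 4 and POP75× replicate 3. Only the second side holds an exposed pool, so that replicate number is partly mixed with exposure in this comparison. Of 20893 genes, 1 was called by limma (0.00479%), namely *znf423*, a zinc finger gene, with 77.3 and 95.8 normalized counts in control replicates 1 and 2 and 0 in both other pools (log2 difference 6.44, standard error 0.67, adjusted p = 0.000159). In the 6 pools of the rule *znf423* had 38.2 to 94.6 counts, on both sides. None of the 45 clock and light genes was called (lowest adjusted p 0.797). With limma 1209 of the 20893 genes had an unadjusted p under 0.05, and so had a similar share of the clock and light genes, 3 of 45. These were *rorcb* (0.82, standard error 0.35), *nr1d4b* (1.05, standard error 0.48) and *arntl2* (0.83, standard error 0.34). All 3 were higher in numbers 1 and 2, the direction of the clock-shifted pools. Between the sides they differed by 3.68, 3.13 and 0.94, so that *arntl2* differed by a similar amount in both comparisons. *nr1d1* differed by −0.33 (standard error 0.32) and *nfil3-5* by 0.31 (standard error 0.30). The count of genes depended on single pools, being 10 when control replicate 1 was left out, 2292 when control replicate 2 was and 73 when control replicate 4 was, and 8 for the control pools alone.

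Beyond the clock lists, the genes with the largest differences held several without a known name. *CABZ01069162.1* had 0, 1.05 and 0 normalized counts in the clock-shifted pools against 377, 554 and 372, the clock-shifted value of 1.05 being a single read. *CABZ01024501.1* was at 0 in the 3 clock-shifted pools and had 136, 151 and 41.9 in the other exposed pools, at least 34.3-fold lower when each clock-shifted pool is set to a floor of 3 reads. *si:dkey-18a10.3* had 21.5, 21.0 and 25.5 against 545, 598 and 403 (22.7-fold lower). For *CABZ01069162.1* and *si:dkey-18a10.3* all 4 pools outside the rule stood with the other exposed pools, whereas *CABZ01024501.1* varied from 6.39 to 197 among them. *eevs*, which encodes an enzyme that makes the sunscreen gadusol in fish, had 141, 123 and 114 against 1565, 1257 and 824 (9.64-fold lower), and the 4 outside pools had 1446, 1215, 1195 and 1125. *rhcgl1*, an ammonia transporter gene, had 84.9, 38.9 and 73.0 against 649.5, 753 and 649 (10.4-fold lower). Here the control pools, at 129.8, 109 and 105, lay just above the clock-shifted pools, and POP75× replicate 3, at 566, with the other exposed pools. The further genes among the 12 largest negative differences were *si:ch211-132b12.7*, *si:ch211-219a15.4* and *si:ch211-261n11.7* (−3.20 to −2.97), with *serpinh1b*, *nr1d1*, *ahsa1a* and *per1a*.

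In the other direction, *fbxl3l* had 207, 159 and 157 normalized counts in the clock-shifted pools against 11.7, 5.61 and 12.2 (17.7-fold higher). *BX322555.3* and *BX469930.1* were both 15.1-fold higher, and *CABZ01117503.1* had a difference of 3.23. *cyp1a*, the classical target of the aryl hydrocarbon receptor that breaks down aromatic compounds, had 7041, 4298 and 6261 in the clock-shifted pools against 436, 471 and 1425 (7.55-fold higher). Control replicates 1, 2 and 4 and POP75× replicate 3 had 283, 1568, 1439 and 2389 of *cyp1a*, so that the controls alone spanned more than the POP125× pools of the other exposed side. *btr30* rested on single pools, with 133, 161 and 161 against 119, 0 and 0, where POP75× replicate 4 alone carried reads on the other side. *mmp13a* (ENSDARG00000114451), a collagenase gene, had 563, 628 and 1046 against 85.0, 103 and 83.8 (8.24-fold higher). The remaining genes among the 12 largest positive differences were *BFSP1*, *aanat2*, *nr1d4b*, *rorcb* and *nfil3-5*.

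**Figure D2:**
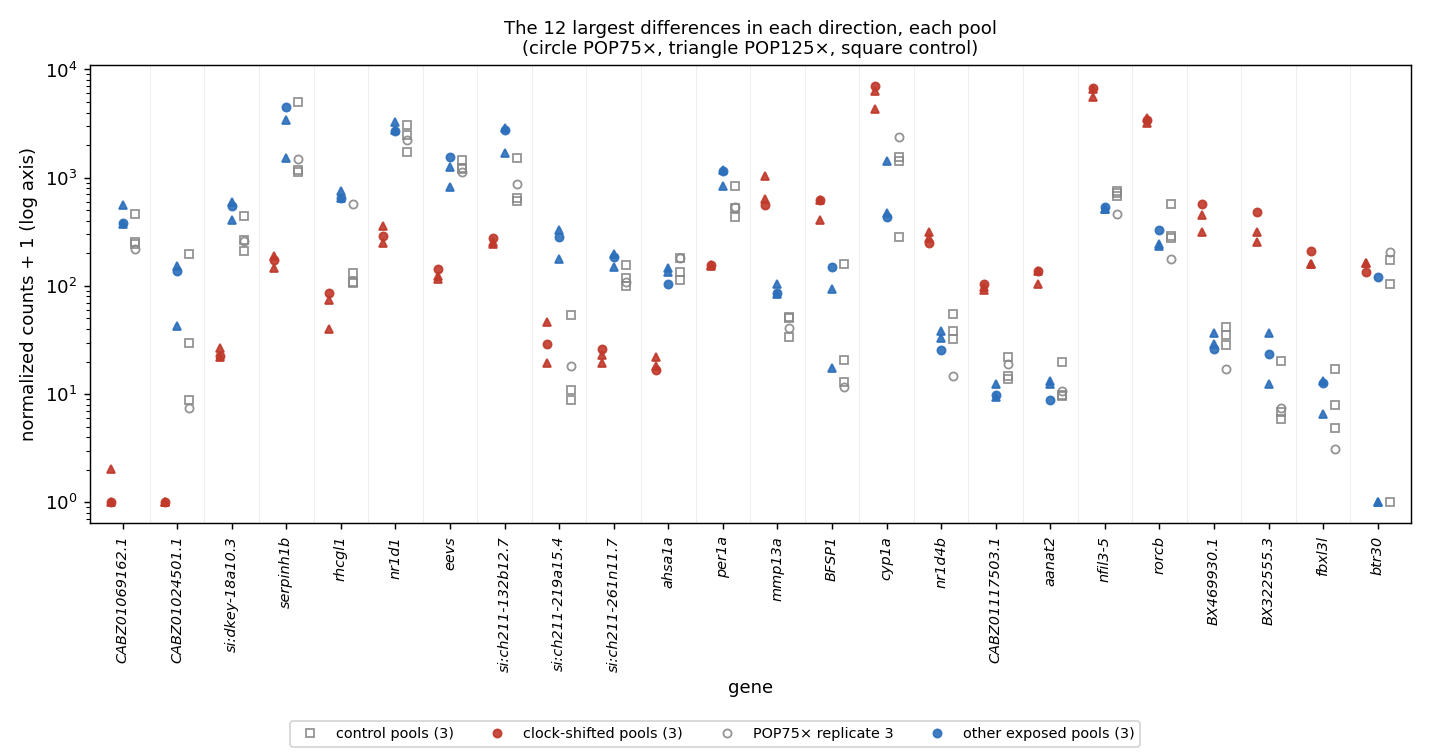
Normalized counts (plus 1, log axis) of the 12 genes with the largest difference in each direction among genes with a mean of at least 50 normalized counts and no overlap, 1 column per gene and 1 symbol per pool. Red symbols are the clock-shifted pools, blue symbols the other exposed pools and open symbols the 4 pools in neither side, with *CABZ01024501.1* at 0 in all 3 clock-shifted pools.

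Chaperone genes lay lower in the clock-shifted pools. Of 31 heat shock genes and chaperones, 21 lay lower without overlap (18.2% of all genes did) and 1, *hsf1*, higher (20.1% of all genes). Called lower were 8 (1.96% of all genes), and the median was −0.57. *serpinh1b*, which encodes the collagen chaperone Hsp47 and was a marker of the rule, had 174, 144 and 187 in the clock-shifted pools against 4471, 3384 and 1505 (18.5-fold lower). The other pools varied widely in *serpinh1b*, with 4996, 1182, 1124 and 1482 in control replicates 1, 2 and 4 and POP75× replicate 3, all far above the clock-shifted pools. *hsp90aa1.2*, an inducible Hsp90 gene, had 991, 761 and 862 against 5534, 6127 and 4373 (6.14-fold lower), and *hsp90aa1.1* differed by −1.69. The Hsp90 genes are close copies, and so are *hsp70.1*, *hsp70.2*, *hsp70.3* and *hsp70l* (−0.96 to −0.56), so that the share of reads given to each copy is uncertain. *hsp70.1* had 218, 92.5 and 198 in the clock-shifted pools against 309, 349 and 279. Control replicates 1, 2 and 4 and POP75× replicate 3, at 178, 85.1, 99.4 and 116, were nearer to the clock-shifted pools. Of the 31 genes, 11 had all 4 outside pools nearer to the other exposed pools and 5 had none. Among cofactors of Hsp90, *ahsa1a* had 15.9, 21.0 and 17.0 against 104, 133 and 145 (7.07-fold lower), while *chordc1a* and *fkbp4* differed by −1.69 and −1.05. The heat shock factor genes parted, as *hsf2* had 259, 242 and 268 against 1114, 1082 and 1059 (4.24-fold lower) and *hsf1* had 774, 801 and 711 against 357, 448 and 439, with a difference of 0.88. The most abundant chaperone genes of the list did not share in the difference, with *hspa8* at −0.08 and *hsp90ab1* at −0.01, both overlapping.

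Of 16 chaperones of the endoplasmic reticulum (ER), 11 lay lower without overlap (18.2% of all genes did) and 2 were called lower (1.96% of all genes), with a median of −0.45. *hsp90b1*, the ER Hsp90, had 2296, 2180.2 and 2524 in the clock-shifted pools against 6306, 6658 and 5853 (2.69-fold lower). *pdia4*, a protein disulfide isomerase, had 676, 548 and 601 against 1515, 1425 and 1282 (2.31-fold lower), and *hspa5* (BiP) and *pdia6* differed by −0.92 and −0.90. The summed ER list, 17649 to 20993 normalized counts in the clock-shifted pools, was below both the other exposed pools (31178 to 35169) and the 4 outside pools (33569 to 38091). Among 39 collagens and collagen enzymes, 15 lay lower (18.2% of all genes did) and 3 higher (20.1% of all genes) without overlap. Of the 39, 2 were called lower (1.96% of all genes) and 1 higher (2.21% of all genes). The called ones were *serpinh1b*, counted here too, *p4ha2*, a prolyl hydroxylase gene (137, 133 and 118 against 379, 423 and 362), and, in the other direction, *p3h2* (1.02). The largest negative differences in this list were those of chaperones and modifying enzymes rather than collagens, such as *p3h1* (−0.99), *p4ha1a* (−0.82) and *plod1a* (−0.71).

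**Figure D3:**
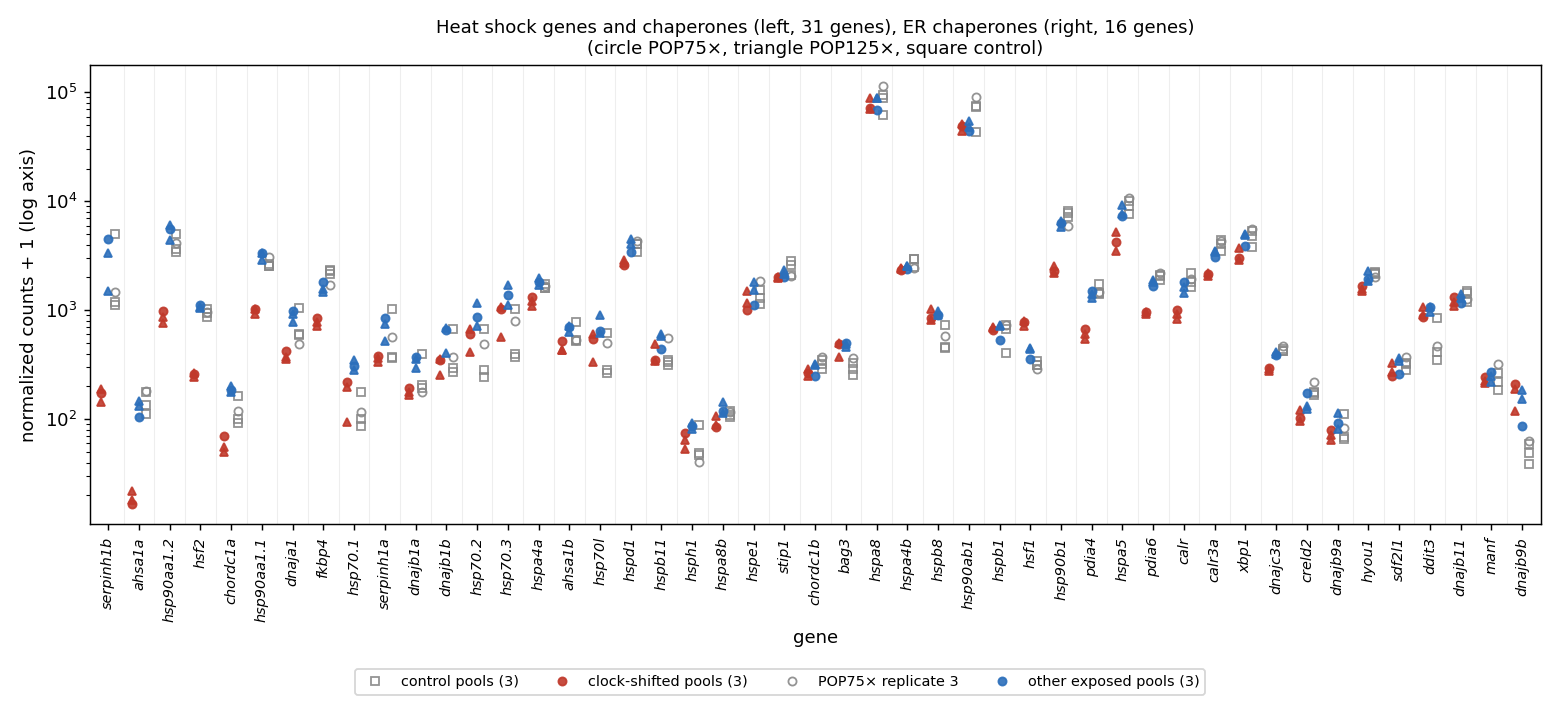
Normalized counts (plus 1, log axis) of 31 heat shock genes and chaperones and 16 ER chaperones, 1 column per gene and 1 symbol per pool, red for the clock-shifted pools, blue for the other exposed pools and open for the rest. Red symbols lie below all blue symbols in 21 of the 31 and 11 of the 16 genes, and above them in 1, *hsf1*.

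Lens genes stood higher in the clock-shifted pools. Of 21 lens markers 5 did not reach the minimum. Of the 16 kept, 13 lay higher without overlap (20.1% of all genes did) and none lower (18.2% of all genes). Called higher were 8 (2.21% of all genes), and the median was 1.18. *crybb1*, which encodes a beta crystallin, had 7856, 5128 and 8057 in the clock-shifted pools against 2028, 1524 and 556 (5.12-fold higher). *cryba1b* had 4849.9, 3780.5 and 5089 against 1404, 1233 and 428 (4.48-fold higher). *BFSP1*, a filament protein gene of lens fibres, had 615, 405 and 617 against 148, 93.5 and 16.6 (6.33-fold higher). POP125× replicate 4 was the lowest of the other exposed pools in each of these, and the difference between the POP75× pools was smaller than that between the POP125× pools, 1.95 and 2.80 for *crybb1*. The summed lens markers reached 36101 to 45738 normalized counts in the clock-shifted pools and 12246 to 23061 in the other exposed pools. Control replicate 1 had 26434, while control replicates 2 and 4 and POP75× replicate 3 had 7725, 7970 and 6271. The ratio of these sums between control replicate 1 and the other controls was thus larger than that between the means of the sides. Whether the amount of lens tissue in a pool had a part in this was not tested.

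Photoreceptor genes went both ways. Of 23, 6 were called lower (1.96% of all genes) and 2 higher (2.21% of all genes), and the median was 0.03. Those called lower included several genes of cones. *grk7a*, the cone opsin kinase, had 561, 475 and 480.4 in the clock-shifted pools against 2597, 2078 and 1534 (4.1-fold lower). *arr3b* and *arr3a*, cone arrestins, differed by −1.35 and −1.12, and *pde6c* and *pde6ha*, subunits of the cone phosphodiesterase, by −1.34 and −1.01. *guca1d*, a guanylate cyclase activator gene, was near the floor of 3 reads, with 4.66, 1.05 and 1.22 against 32.2, 22.4 and 20.1. The cone opsins were not lower with them, since *opn1lw1* had 70.0, 39.9 and 52.3 in the clock-shifted pools against 12.7, 15.9 and 8.73 (4.35-fold higher) and *opn1mw2* differed by 1.06, whereas *opn1sw1*, *opn1sw2* and *opn1mw1* overlapped. The summed markers were 53904 to 59742 in the clock-shifted pools and 66383 to 72201 in the other exposed pools.

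**Figure D4:**
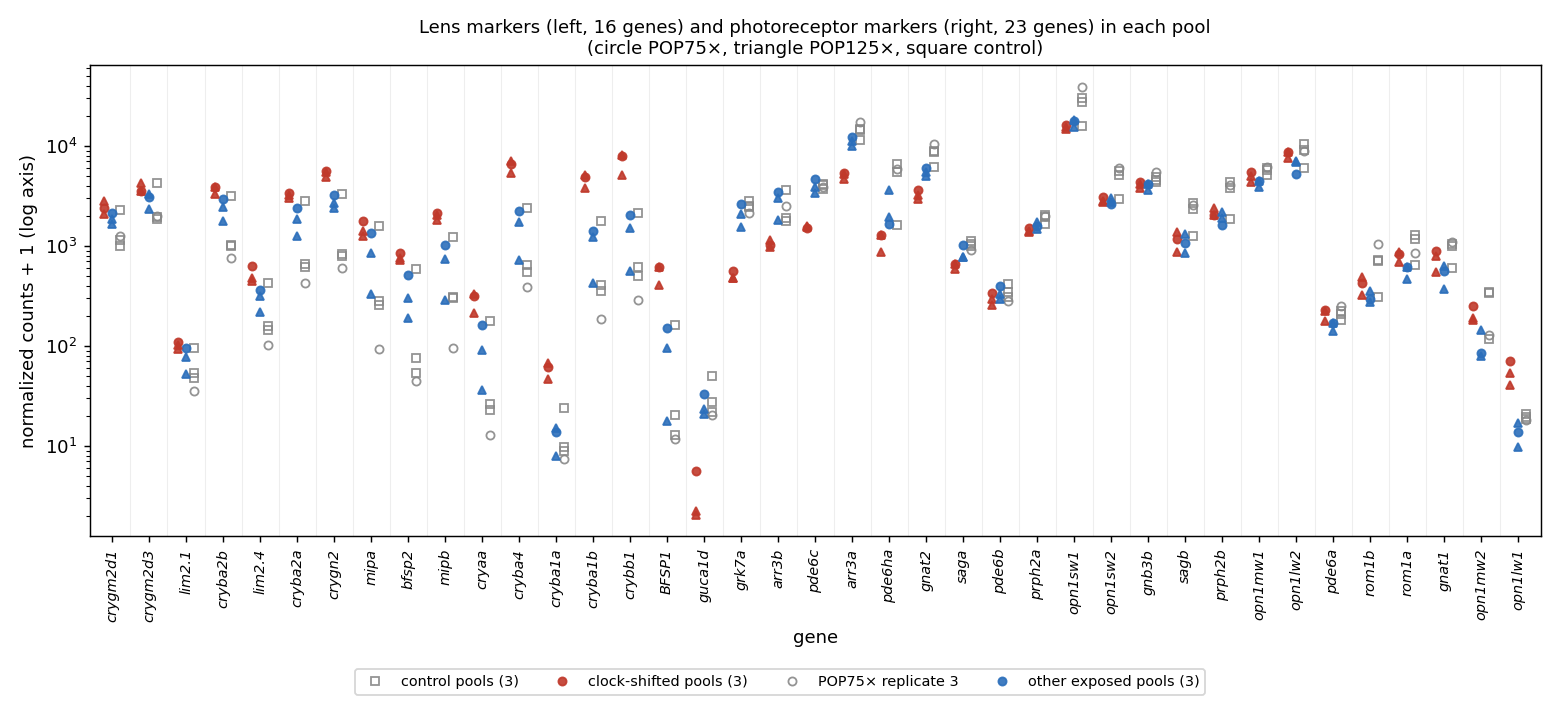
Normalized counts (plus 1, log axis) of 16 lens and 23 photoreceptor markers, 1 column per gene and 1 symbol per pool, red for the clock-shifted pools, blue for the other exposed pools and open for the rest. Lens genes have red symbols above the blue ones in 13 of 16 genes, and in *crybb1* the open circle and 1 of the 3 open squares lie below all blue symbols. Among the 23 photoreceptor markers the red symbols lie below the blue ones in 8 genes, *grk7a* among them (18.2% of all genes did). They lie above the blue ones in 5, *opn1lw1* among them, near the share of all genes (20.1%).

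Of 18 myeloid markers, 9 lay higher without overlap (20.1% of all genes did), 8 overlapped and 1, *grn1*, lay lower (−0.99). Called higher were 4 (2.21% of all genes), and the median was 0.31, or 0.87 between the POP75× pools and 0.12 between the POP125× pools. Their summed level was 4319 to 5779 in the clock-shifted pools, 2257 to 3169 in the other exposed pools and 1782 to 2230 in the 4 outside pools. This sum includes the 4 called genes, of which *mmp9* averaged 1461 against 512 and *mmp13a* (ENSDARG00000114451) 746 against 90.5 between the sides. The called genes are those of secreted proteases and a cytokine, which cells other than leukocytes can also express. *mmp9*, a gelatinase, had 1115, 1176 and 2093 in the clock-shifted pools against 319, 609.6 and 607 (2.85-fold higher). *il1b*, a cytokine gene of inflammation, had 33.6, 172 and 156 against 25.4, 20.6 and 16.6, so that the POP75× pools differed by only 0.39 and the POP125× pools by 3.08. The other 2 were the identifiers of *mmp13a*, of which ENSDARG00000012395 differed by 1.41. *mpeg1.2*, *ncf1* and *cybb*, which are more restricted to macrophages and neutrophils, lay higher by 0.99, 0.79 and 0.68. They were named after their values were seen and do not stand for the whole list, of which 8 of 18 genes overlapped.

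Of 25 skeletal muscle markers, 7 lay higher without overlap (20.1% of all genes did). Called higher were 2 (2.21% of all genes), the titin genes *ttn.1* and *ttn.2*. *ttn.1* had 43183, 41330.0 and 36753 in the clock-shifted pools against 23725, 17229 and 10615, while control replicate 1 had 26859 and the other 3 outside pools 2755 to 3174. The median of the muscle list was 0.05, near that of all genes. In the other tissue lists few genes were called. None was called among 12 heart, 17 exocrine pancreas, 21 liver, 13 intestine, 14 red cell, 19 skin keratin, 18 cartilage and bone and 13 mitochondrial genome genes. These lists had medians of 0.06, −0.25, −0.17, −0.19, −0.18, −0.35, −0.08 and 0.20, in this order. Of 15 ionocyte markers 1 was called lower (1.96% of all genes), *ca15a*, a carbonic anhydrase gene (−1.06). Of 21 brain markers 1 was called higher (2.21% of all genes). This was *neurod1* (4074, 3509 and 3863 against 1593, 1743 and 2395), a transcription factor also of retina and endocrine cells. The keratins lay lower without overlap in 8 of 19 genes (18.2% of all genes did). Their summed levels were 130624 to 156658 in the clock-shifted pools and 140164 to 189624 in the other exposed pools.

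Genes of cholesterol synthesis lay lower in the clock-shifted pools in 14 of 25 cases without overlap (18.2% of all genes did) and higher in 3 (20.1% of all genes), while 8 overlapped, with a median of −0.43. Called lower were 3 (1.96% of all genes). These were *sqlea*, which encodes squalene epoxidase (54.1, 53.6 and 58.4 against 155, 195 and 167, 3.12-fold), *msmo1* (−1.22) and *cyp51* (−1.11). *insig1* and *ldlra*, which do not encode enzymes of the pathway but its feedback inhibitor and the low density lipoprotein receptor, lay higher by 0.98 and 0.63.

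Stress and growth lists differed less. For comparison, 20.1% of all genes lay higher and 18.2% lower without overlap, and 2.21% were called higher and 1.96% lower. Of 27 immediate early genes, 4 lay higher and 4 lower, and 1 was called, *fosl1a*, with 444, 1048 and 1809 in the clock-shifted pools against 154, 324 and 416 (3.69-fold higher). Of 15 glucocorticoid targets, *per1a* and *cry2*, already counted as clock genes, were called lower and *mt2*, a metallothionein gene, higher (1.07). Of 19 genes of the integrated stress response, 8 lay lower and 2 higher, with *mthfd2* called lower (−1.02) and *cebpb* called higher (1.33). Of 26 fasting and Foxo targets 1 was called, *irs2a*, an insulin receptor substrate gene, with 261, 258 and 215 against 796, 757 and 627 (2.97-fold lower). None of 28 proliferation genes was called, and their median was 0.06.

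**Figure D5:**
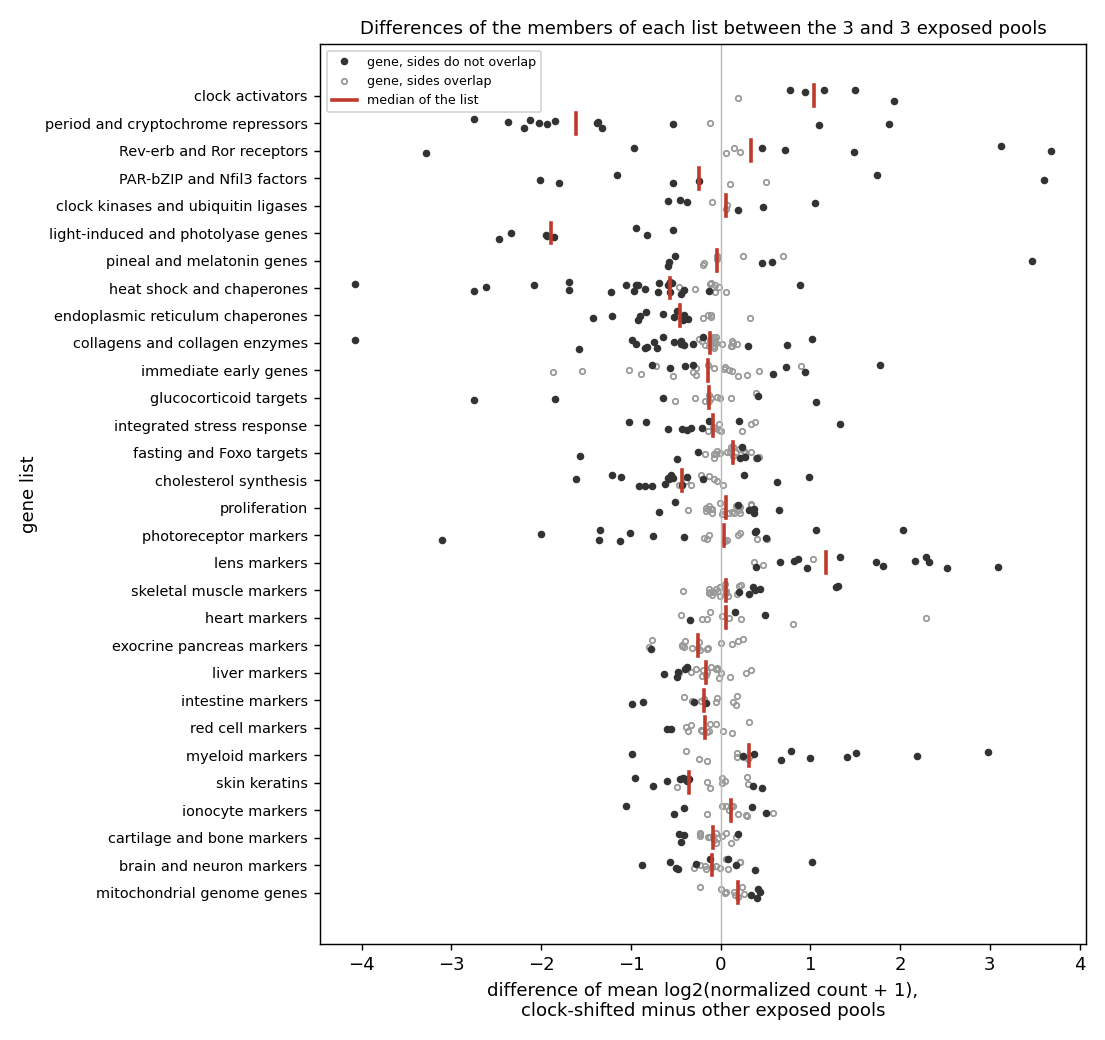
Differences of the mean log2 (value + 1), clock-shifted minus other exposed pools, for every measured member of each gene list, 1 row per list and 1 point per gene, with the median of each list marked. The light-induced genes (median −1.90) and the period and cryptochrome repressors (−1.61) lie furthest to the left, the lens markers (1.18) and clock activators (1.04) furthest to the right, and the median of all genes is 0.01.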

How the data were processed

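RNA-seq of 10 pools of whole larvae was used. The deposited table gives 1 normalized count per gene and pool, the signal of a gene being its count of reads divided by a size factor of the pool. Per the labels and the methods, the authors made stranded single-end mRNA libraries from pools of 75 larvae (65 by the methods), mapped and counted them with the nf-core rnaseq pipeline 3.0 on GRCz11 with Ensembl annotation, and normalized them with DESeq2. Strand, multi-mapping and filter settings beyond the defaults are not given in the sources used here. Size-factor scaling takes most genes as unchanged. The other deposited tables hold the authors' fold changes and p-values for each dose against control and were not used.

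In every pool 100% of values were whole multiples of a common step (tolerance 0.01 of a step), and these multiples were taken as reads for edgeR and DESeq2. At this depth a gene under 10 normalized counts in all but 2 of the 6 pools was left out, so that changes in such genes are not detectable here. The members, the pools of each side, were fixed by clustering and clock genes, and only their columns were found from the labels' titles. The members, the gene lists and the tests were chosen with earlier results of these data known. The sides were described by differences of mean log2(value + 1), by overlap and by a minimum of 2-fold. Within-dose differences are given beside some of them. Dose within the 6 pools, and replicate numbers within the 4 outside pools, were tested with limma 3.58.1 (intensity trend, Benjamini-Hochberg adjustment over all genes) in R 4.3.3, with edgeR 4.0.16 (quasi-likelihood test) and DESeq2 1.42.0 on reads as alternatives. Nothing in the labels says whether replicates came from separate clutches, so that p-values measure the spread between these pools. The scripts were tested on simulated data. Further alternatives were CPM and TMM scaling, pseudocounts of 0.5 and 5, no filter, a mean of at least 50, 1.5-fold, pool set or replicate number as a term, and leaving out each pool.

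Named genes are all members of the 5 clock and light lists, the markers of the rule, the 12 largest differences without overlap in each direction (mean of at least 50), and in other lists the 2 to 4 largest without overlap. Others (such as *hsf1*, *hspa8* and the remaining called members of the lists) were named after their values were seen. Symbols were matched to the table's own, or through synonyms of RefSeq genes, and 566 symbols had more than 1 identifier. 1 item is not reported here. No coordinates or sequences are given, since only gene tables of another assembly were at hand. Figures used Python 3.11.15 and matplotlib 3.10.9.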

Additional observations from a re-analysis of the deposited data

How the results depend on the processing

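The difference between the sides was described under other settings. Higher and lower genes numbered 439 and 452 with CPM and 435 and 447 with TMM factors, and 435 and 414 of the genes were shared with those called first under TMM. Leaving out each of the 6 pools in turn gave 502 to 553 higher and 458 to 487 lower. Other settings moved the counts by more: 763 genes were higher and 612 lower with no filter, 236 higher and 229 lower with a mean of at least 50, 1385 and 1332 at 1.5-fold, and 851 and 705 with the POP75× pools alone (1 against 1, with no overlap to judge by, chosen after seeing the data). With the POP125× pools alone, 547 and 513 were called. For 150 named genes under 12 alternatives, 1734 of 1800 values moved by less than the spread between replicates and 66 moved by more. Changes of sign were counted for called genes only, and there were 0. Some uncalled genes with small differences did change sign, such as *nr1d2a*, at 0.217 between the sides and −0.0074 between the POP125× pools.

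The dose test gave 0 genes in the 6 fits without 1 pool and with edgeR, TMM factors, a pseudocount of 5 or no filter. It gave 9 with DESeq2 and 1 with the pool set as a term (*cbarpb*, 0.94 on the log2 scale, limma adjusted p = 0.0333, which is too small because the sets were chosen from these values). With the replicate block in the same comparison limma called 198 genes. Only the numbers 2 and 4 are shared between doses, and the deviations of same-numbered pools from their dose means correlated at 0.57 and 0.48. Both values come from pools placed together by clustering, and the 2 POP75× pools deviate from their mean by equal and opposite amounts. The correlations are therefore not independent of each other or of the choice of pools, and do not show pairing by number. The replicate block takes up the difference between the sets, as the pool set term does, and also the differences between numbers within a set. Dose is then estimated from the numbers 2 and 4 alone, and the reason for the larger count was not tested. The comparison of replicate numbers in the 4 outside pools called 8 genes in control pools alone and 10 to 2292 when 1 control was left out (10 without replicate 1, 2292 without replicate 2 and 73 without replicate 4, chosen after seeing the data), where one side holds a single pool assumed to vary like the others. The cause of these changes was not tested. Each side rests on 3 pools that were chosen from the values themselves, and genes under about 10 normalized counts were not examined.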

Other observations

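A list of 17 genes of the aryl hydrocarbon receptor pathway was drawn up after *cyp1a* had been seen among the largest differences, so that it is a description only. Of the 16 genes measured, 4 lay higher (20.1% of all genes did) and 1 lower (18.2% of all genes) in the clock-shifted pools without overlap. Called higher were 2 (2.21% of all genes), and the median was −0.01. Besides *cyp1a* the other called gene was *ahrra*, which encodes the repressor of the receptor, with 21.5, 27.3 and 29.2 normalized counts in the clock-shifted pools against 13.7, 8.42 and 5.24 in the other exposed pools. In the 4 remaining pools, control replicates 1, 2 and 4 and POP75× replicate 3, *ahrra* had 11.5, 9.78, 15.8 and 19.2. These counts were few, and *ahrra* passed the minimum of 10 in 3 pools through the clock-shifted pools. The paralogs of *cyp1a* did not share its difference. *cyp1b1* had 80.2, 66.2 and 35.3 against 81.1, 77.6 and 68.1, and *cyp1c1* had 412, 258 and 353 against 304, 273 and 253, both overlapping. *cyp1c2* and *cyp1d1* overlapped as well (−0.32 and −0.09). Among the receptors, *ahr1b* lay higher by 0.60 without overlap, whereas *ahr2*, the main receptor of dioxin-like compounds in zebrafish, overlapped (0.11). *foxq1a* lay higher by 0.40 and *foxq1b* lower by 0.65.

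The single gene that separated replicate numbers in the 4 outside pools, *znf423*, was expressed in all 6 pools of the rule and had no reads in control replicate 4 and POP75× replicate 3. *btr30* had no reads in control replicate 2 and POP125× replicates 3 and 4, and 103 to 207 normalized counts in the 7 other pools.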
